A study of Rattus norvegicus with 8 samples.

Results

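Kcnj10, Gja1, Glul, Slc1a3, Fabp7 and Apoe are 6 genes known for the housekeeping work that satellite glia do around sensory neurons. They were taken from the 30560 genes of the deposited count matrix by their symbols, and each symbol matched exactly 1 row. Their transcript counts (unique molecular identifiers, UMIs) were followed across glia, neurons and other nuclei of the rat nodose ganglion, the sensory ganglion of the vagus nerve, and across its left and right sides.

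Single-nucleus RNA sequencing had been run on ganglia of untreated Long Evans rats aged 8 weeks, 18 male and 18 female. Each of 12 pools combined ganglia of 1 side from 6 rats, with 3 pools for male left (ML1 to ML3), male right (MR1 to MR3), female left (FL1 to FL3) and female right (FR1 to FR3). The animals carried no stated allele, transgene or agent, and the groups were set up by side and labelled sex. By these numbers the left and right pools of a sex would draw on the same 18 rats and are not independent animals, and a pool, not a nucleus, was the replicate throughout.

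Satellite glia form a thin envelope around the cell body of each sensory neuron. Kcnj10 encodes the inward rectifier potassium channel Kir4.1, which takes up potassium released by active neurons, and Gja1 encodes connexin 43, a gap junction protein that couples neighbouring cells. Slc1a3 encodes the glutamate transporter GLAST and Glul encodes glutamine synthetase, which converts glutamate to glutamine. Fabp7 is a brain-type fatty acid binding protein of the glial lineage, and Apoe is a lipoprotein that carries cholesterol and other lipids between cells. Glul and Gja1 are also known in vessel wall cells and in many other tissues, and Apoe in macrophages.

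The kept data comprised 36740 nuclei with a median of 2680 UMIs, and 1738 to 4849 nuclei per pool. Clusters built without the 6 genes, mitochondrial genes or Y-linked genes gave 5317 satellite glia-like nuclei, 2386 myelinating Schwann cell-like, 685 endothelial-like and 23361 neuron-like nuclei, and 482 nuclei of a cluster led by Acta2 and Myh11 that is called mixed vessel. A further 546 nuclei were skeletal muscle-like, 391 of them in FR2, 19 were fibroblast-like and 3944 had no name. Y-linked transcripts went against the label in 2 pools, ML1 and FL1, so groups are called male-labelled and female-labelled and each comparison was repeated without both. The 8 sublibraries held nuclei of every pool, and 1865 of 34798 barcode combinations occurred in more than 1 sublibrary.

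The satellite glia-like name rested on 18 marker genes that did not include the 6 genes. All 18 had a higher mean level in these nuclei than in neuron-like nuclei, but only 7 of 18 exceeded the Schwann cell-like mean. Their summed level was 6142 ± 511 UMIs per 1000000 of the class (CPM, SD, n = 12 pools), against 14966 ± 1571 CPM in Schwann cell-like and 1325 ± 182 CPM in neuron-like nuclei. Cadm2 and Slc35f1 made up a large part of each sum, at means of 6590 and 4450 CPM in Schwann cell-like nuclei. They were at 1413 and 1522 CPM in satellite glia-like and at 495 and 432 CPM in neuron-like nuclei. The sums of these markers given below include both genes, and sums without them were not taken. The myelin list told the 2 glial classes apart, at 1409 ± 198 CPM in satellite glia-like and 12428 ± 843 CPM in Schwann cell-like nuclei. A list for non-myelinating Schwann cells did so less, at 10359 ± 580 and 12404 ± 829 CPM, beside 5568 ± 247 CPM in neuron-like nuclei. No cluster took that name, and the part of non-myelinating Schwann cells in the satellite glia-like class was not tested. The satellite glia-like nuclei also carried 15 of 15 neuron markers at a summed 9749 to 12366 CPM per pool, close to the 11256 to 13684 CPM of neuron-like nuclei. The part of this neuronal RNA in the levels below was not tested. A level in this class is therefore that of nuclei with mixed glial and neuronal transcripts. The vessel classes were mixed too. The mixed vessel nuclei met the rule for mural cells (the contractile and support cells of small vessels), with mural markers at 5684 ± 1043 CPM, but carried endothelial markers at 6994 ± 620 CPM, so their levels cannot be given to either cell type. Endothelial-like nuclei held satellite glia markers at 5946 ± 620 CPM and neuron markers at 7306 ± 988 CPM beside endothelial markers at 3154 ± 1105 CPM. The part of glial and neuronal RNA in the endothelial-like levels was not tested.

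Kcnj10 marked the satellite glia-like nuclei most clearly of the potassium and coupling pair. Its level over the 12 pools ran from 133 to 198 CPM with a median of 169 CPM, and the mean was 167 ± 20.4 CPM (SD, n = 12). Neuron-like nuclei held 14.6 ± 3.62 CPM, with a range of 8.38 to 20.8 CPM, and mixed vessel nuclei held 16.6 ± 8.37 CPM. The satellite glia-like pools lay wholly above both, by 11.4-fold and 10.1-fold of the means. Schwann cell-like nuclei held 101 ± 26.9 CPM and endothelial-like nuclei, which carried nearly as much of the satellite glia markers, 94.6 ± 41.4 CPM. Within pools, the satellite glia-like level was the higher of the pair in 11 of 12 pools against Schwann cell-like and in 12 of 12 against endothelial-like nuclei, although the ranges over pools overlapped. These are descriptions of clusters and carry no test.

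Gja1 had another order. In satellite glia-like nuclei its level ran from 8.56 to 28.5 CPM with a median of 19.4 CPM (mean 19.8 ± 5.43 CPM, SD, n = 12), from 400 UMIs in all. Every pool was above every pool of neuron-like nuclei, whose mean was 1.61 ± 0.656 CPM. Mixed vessel nuclei held a mean of 45.8 ± 26.9 CPM and endothelial-like nuclei 41.2 ± 35.9 CPM, and these exceeded the satellite glia-like level within 9 of 12 and 10 of 12 pools. The mixed vessel and endothelial-like values rested on 56 and 64 UMIs and their ranges overlapped that of satellite glia-like nuclei. Schwann cell-like nuclei were lower in 12 of 12 pools, at 5.03 ± 3.69 CPM.

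Of the glutamate pair, Slc1a3 did not set satellite glia-like nuclei apart from Schwann cell-like or endothelial-like ones. It was at 33.3 to 51.6 CPM in satellite glia-like nuclei, with a median of 36.6 CPM and a mean of 40.0 ± 6.91 CPM. Schwann cell-like nuclei had 47.1 ± 11.5 CPM, higher within 9 of 12 pools, and the ranges overlapped. Endothelial-like nuclei had 34.5 ± 28.7 CPM, and the satellite glia-like level was the higher within 7 of 12 pools. Neuron-like nuclei had 4.71 ± 1.07 CPM and their range of 2.89 to 6.12 CPM lay below every satellite glia-like pool. Mixed vessel nuclei had 9.63 ± 11.5 CPM from 11 UMIs.

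Glul was highest outside the glia. Mixed vessel nuclei ranged from 68.9 to 256 CPM with a median of 164 CPM, above the 39.6 to 58.7 CPM of satellite glia-like nuclei in 12 of 12 pools and without overlap. The low mixed vessel values of 68.9 CPM in FL3 and 74.1 CPM in ML2 rested on 3 UMIs each, so the lack of overlap hangs on few counts. The means were 163 ± 75.2 and 48.3 ± 6.38 CPM (SD, n = 12), a ratio of 3.37. Endothelial-like nuclei had 94.3 ± 46.6 CPM and exceeded the satellite glia-like level within 10 of 12 pools, and Schwann cell-like nuclei had 57.1 ± 11.9 CPM and exceeded it within 9 of 12. Neuron-like nuclei had 11.6 ± 1.59 CPM, 4.17-fold below the satellite glia-like mean, which was the smallest such ratio among the 6 genes.

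Fabp7 was scarce in every class. Satellite glia-like nuclei held 102 UMIs in all, 2.95 to 9.60 CPM per pool with a median of 4.98 CPM and a mean of 5.28 ± 2.04 CPM. Each pool was above the 0 to 1.39 CPM of neuron-like nuclei, whose mean was 0.714 ± 0.417 CPM. None of the 482 mixed vessel nuclei held a UMI, which allows a share of nuclei with a UMI of up to 0.622% (3 nuclei of the total) and does not bound the share that express the gene. The 8 UMIs of Schwann cell-like and 5 of endothelial-like nuclei were too few to place those classes against the satellite glia-like one.

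Apoe separated satellite glia-like nuclei from most other classes. Its level ran from 984 to 1528 CPM with a median of 1349 CPM, and the mean was 1304 ± 169 CPM (SD, n = 12). Neuron-like nuclei had 101 ± 23.1 CPM, Schwann cell-like 331 ± 86.9 CPM and mixed vessel 168 ± 83 CPM, and none of their pools reached the lowest satellite glia-like pool. Endothelial-like nuclei had 777 ± 158 CPM, lower within 12 of 12 pools, with ranges that overlapped, beside the satellite glia markers they carry. The 11 macrophage markers summed to 44.9 to 91.7 CPM in satellite glia-like nuclei, 8.19 to 16.9 CPM in neuron-like and 40.2 to 149 CPM in endothelial-like nuclei, and their part in the Apoe level was not tested.

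**Figure D1:**
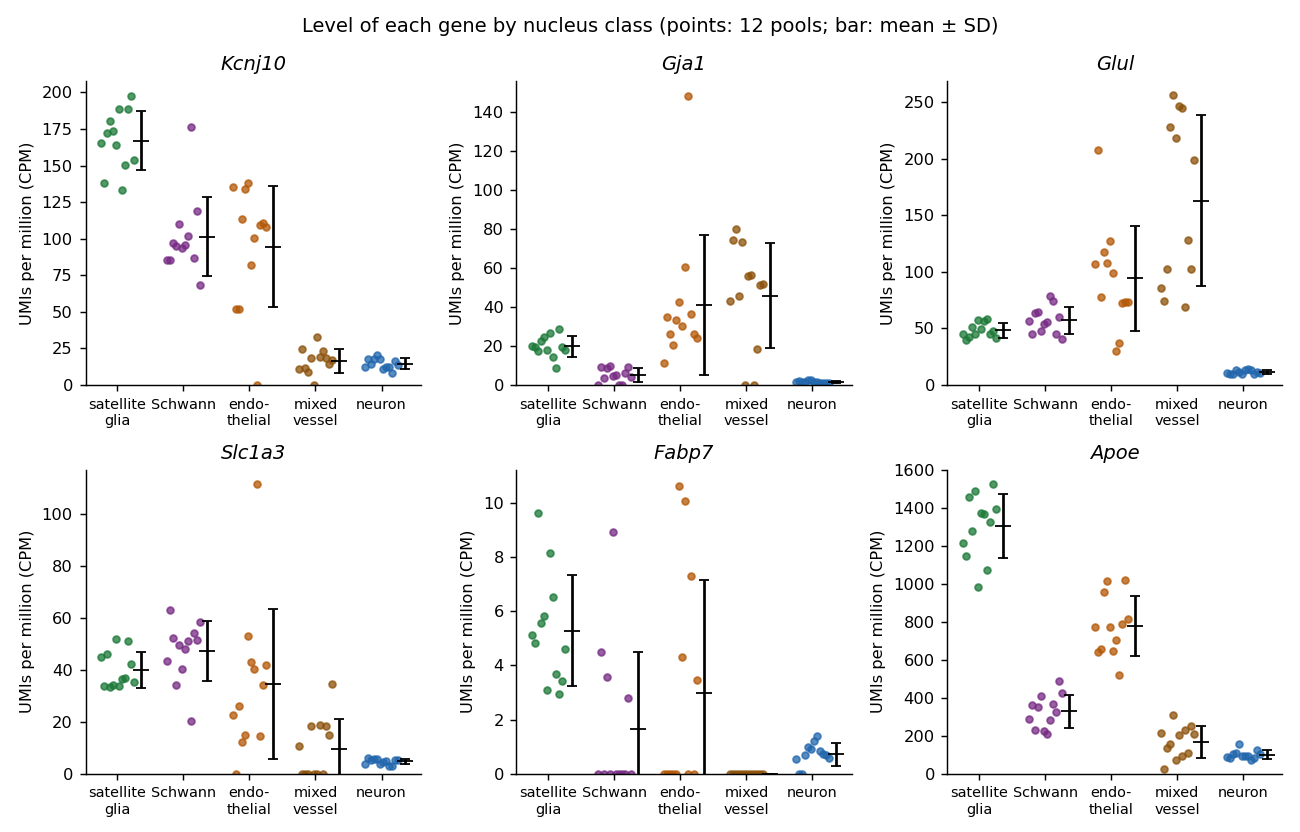
Level of each gene in CPM (linear axis from 0) in 5 classes of nuclei, with 1 point per pool (12 pools) and the mean ± SD beside them. The satellite glia-like pools of all 6 genes lie above the neuron-like pools, while Gja1 and Glul reach their highest means in mixed vessel nuclei. SD bars that would reach below 0 are cut at the axis.

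The 8 sublibraries, each with nuclei of every pool, measure technical spread between sublibraries, and none that arose in single pools before. Satellite glia-like Kcnj10 ranged over them from 161 to 184 CPM (SD 6.54 CPM, against 20.4 CPM over pools) and Apoe from 1217 to 1392 CPM (SD 55.9 CPM, against 169 CPM over pools). For the other genes the SDs over sublibraries and over pools lay closer together. They were 6.15 and 6.91 CPM for Slc1a3, 3.49 and 5.43 CPM for Gja1, 3.85 and 6.38 CPM for Glul, and 1.08 and 2.04 CPM for Fabp7.

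The share of nuclei with at least 1 UMI gave the same order for most of the genes. Shares are those expected after thinning each nucleus to 1000 UMIs, because the classes differ in depth, and are given over all nuclei of a class with the SD over 12 pools. Thinning left out 422 satellite glia-like and 875 neuron-like nuclei below that depth. Apoe was then seen in 63.7 ± 4.65% of satellite glia-like nuclei and 6.16 ± 1.18% of neuron-like nuclei. Kcnj10 was seen in 15.7 ± 2.04% and 1.14 ± 0.282%, and Gja1 in 1.93 ± 0.461% and 0.132 ± 0.0515%. Slc1a3 was seen in 3.95 ± 0.478% and 0.417 ± 0.107%, Glul in 4.34 ± 0.677% and 1.03 ± 0.157%, and Fabp7 in 0.452 ± 0.25% and 0.0680 ± 0.0368%. In mixed vessel nuclei Glul was seen in 15.0 ± 6.92%. Without thinning, Apoe was seen in 78.3% of satellite glia-like nuclei (exact 95% binomial interval 77.2 to 79.4%) at a median of 2141 UMIs, and in 15.4% of neuron-like nuclei (15.0 to 15.9%) at a median of 3025 UMIs. The intervals cover counting error only. Free RNA and mixed nuclei can add UMIs to any class, and their part in the neuron-like shares was not tested.

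Few single nuclei showed several of the genes at once. Of 5317 satellite glia-like nuclei, 17.0% held none of the 6, 38.0% held 1, 28.1% held 2, 12.5% held 3 and 3.46% held 4, while 3 nuclei held all 6. Among neuron-like nuclei 79.1% held none. At these depths a missing UMI does not show that a gene was silent.

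Most UMIs of 3 of the 6 genes lay in the satellite glia-like class, although it held 13.8% of all UMIs. Its part was 58.1% of the 44753 Apoe UMIs, 55.1% of the 6015 Kcnj10 UMIs and 50.2% of the 203 Fabp7 UMIs. It was 49.9% of the 802 Gja1 UMIs, 43.6% of the 1733 Slc1a3 UMIs and 30.4% of the 3019 Glul UMIs. Neuron-like nuclei, which held 67.6% of all UMIs, contributed 36.4% of the Glul UMIs and 18.5 to 34.5% of those of the other 5 genes.

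**Figure D2:**
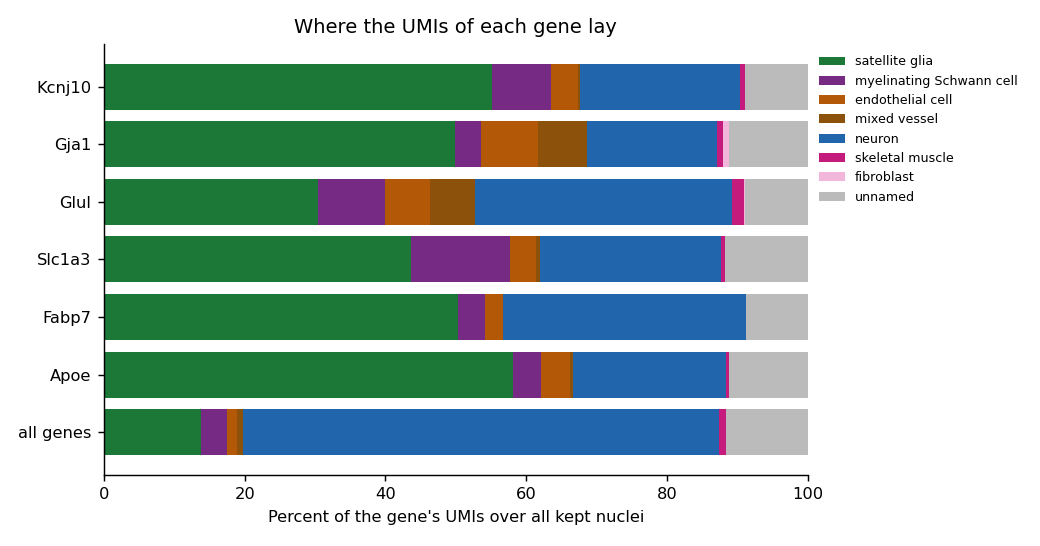
Percent of each gene's UMIs, and of all UMIs (bottom bar), by class of nuclei over all 36740 kept nuclei. The satellite glia-like part is 58.1% for Apoe and 30.4% for Glul, against 13.8% of all UMIs.

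The 6 genes varied together among the satellite glia-like clusters. Of the 6 clusters that made up the class, the largest, with 1531 nuclei and led by Fbln2 and Tnc, had the highest level of each of the 6 genes. It held 279 CPM of Kcnj10, 36.6 CPM of Gja1, 59.1 CPM of Glul, 64.0 CPM of Slc1a3, 8.16 CPM of Fabp7 and 2196 CPM of Apoe. A cluster of 1241 nuclei led by Kctd12 and Acsbg1 had low levels of each, among them 9.11 CPM of Gja1, 33.2 CPM of Glul and 838 CPM of Apoe, the lowest of the 6 clusters. For Kcnj10 it was close to a cluster of 626 nuclei, at 134 and 129 CPM from summed UMIs and 121 and 124 CPM as means over pools. The cluster with the highest levels also had the lowest summed neuron-marker level, 9027 CPM, against 10221 to 12970 CPM in the other 5. Its summed satellite glia marker level was the highest, 8863 CPM against 5122 to 6785 CPM. The part of neuronal RNA in the differences between clusters was not tested, nor whether the 6 genes varied together more than other glial genes. The clusters, which were built from the same nuclei, carry no test.

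Neuron-like clusters differed in the same genes. Over 17 clusters, Apoe ran from 23.4 to 515 CPM with a median of 44.5 CPM, and Kcnj10 from 4.31 to 66.9 CPM with a median of 8.21 CPM. Both were highest in a cluster of 1157 nuclei with Cartpt, a neuropeptide gene, among its leading genes, which also had the highest Gja1 (5.50 CPM) and Slc1a3 (15.1 CPM) levels. That cluster had a median of 6653 UMIs per nucleus, against 3025 in the class, and carried satellite glia markers at a summed 2668 CPM. The 2 smallest neuron-like clusters carried these markers at 2869 and 3226 CPM. They held 8.16 and 12.4 CPM of Kcnj10, from 5 UMIs each, and 135 and 127 CPM of Apoe. The part of glial RNA in these levels was not tested. Glul ran from 7.47 to 25.6 CPM and was highest in other clusters. Pearson's r with the Apoe level over the 17 clusters was 0.97 for Kcnj10 and 0.54 for Glul, given as a description since the clusters share libraries and depth.

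**Figure D3:**
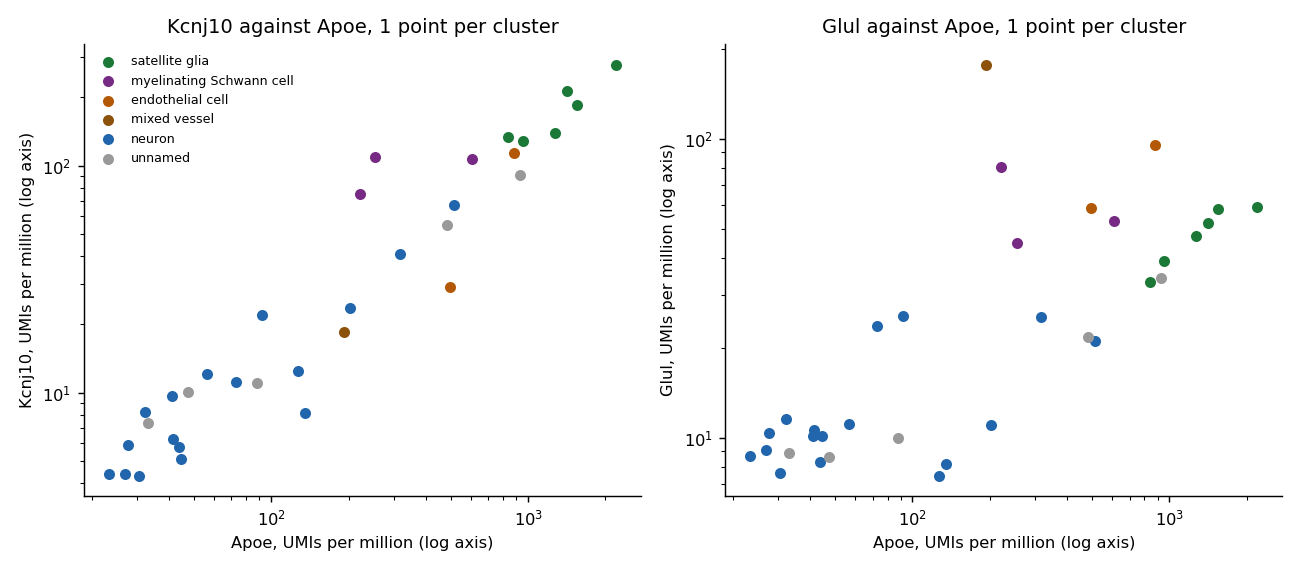
Level of Kcnj10 (left) and Glul (right) against Apoe, both in CPM on log axes, with 1 point for each cluster of nuclei coloured by class (skeletal muscle-like and fibroblast-like clusters are not drawn). Kcnj10 rises with Apoe over neuron-like and satellite glia-like clusters, while the mixed vessel cluster has 177 CPM of Glul beside 193 CPM of Apoe.

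Counts set against Apoe in the same nuclei showed which genes kept a common proportion. Per 100 Apoe UMIs, Kcnj10 had 12.8 UMIs in satellite glia-like and 14.1 in neuron-like nuclei, and Gja1 had 1.54 and 1.52. Slc1a3 had 2.91 and 4.58, Fabp7 0.392 and 0.721, and Glul 3.54 and 11.3. Over the 12 pools the Kcnj10 proportions of both classes overlapped, at 9.73 to 16.7 and 10.3 to 21.3, while those of Glul did not, at 2.90 to 5.79 and 7.29 to 18.6. Schwann cell-like nuclei had 27.7 Kcnj10, 13.4 Slc1a3 and 15.6 Glul UMIs per 100 of Apoe, and mixed vessel nuclei 91.9 of Glul and 26.8 of Gja1. The part of free RNA or mixed nuclei in the neuron-like levels was not tested.

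Because the 6 genes varied together over the satellite glia-like clusters, the sequence before their start sites was examined for shared motifs. RefSeq (build GRCr8) lists 1 start for Kcnj10, Gja1 and Fabp7, 2 for Glul and 3 each for Slc1a3 and Apoe. The 250 bases before the single starts are shown 5′ to 3′ on the plus strand, as cases with and without a SOX match: Kcnj10 at chr13:87334260-87334509, Gja1 at chr20:36302314-36302563 and Fabp7 at chr20:37669356-37669605. These positions are on another build than the count matrix. Capitals mark matches, on either strand, to the SOX core (ACAAAG or ACAATG), the GC box (GGGCGG), the CCAAT box (CCAAT) or the TATA box (TATAAA).
Kcnj10: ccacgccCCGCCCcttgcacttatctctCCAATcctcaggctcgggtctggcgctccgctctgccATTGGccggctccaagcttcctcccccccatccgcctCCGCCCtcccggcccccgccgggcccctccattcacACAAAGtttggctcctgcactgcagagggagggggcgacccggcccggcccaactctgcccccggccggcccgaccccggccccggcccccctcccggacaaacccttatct
Gja1: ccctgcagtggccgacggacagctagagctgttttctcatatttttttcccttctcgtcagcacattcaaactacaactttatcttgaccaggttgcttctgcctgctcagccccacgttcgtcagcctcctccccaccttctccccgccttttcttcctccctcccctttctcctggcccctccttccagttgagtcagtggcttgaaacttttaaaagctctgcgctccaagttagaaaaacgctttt
Fabp7: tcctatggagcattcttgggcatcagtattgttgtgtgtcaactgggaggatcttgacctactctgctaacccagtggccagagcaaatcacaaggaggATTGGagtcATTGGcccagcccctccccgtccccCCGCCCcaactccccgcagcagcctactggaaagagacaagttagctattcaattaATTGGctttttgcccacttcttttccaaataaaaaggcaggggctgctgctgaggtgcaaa
The Kcnj10 window held the SOX core ACAAAG that begins 112 bases before the start, as well as 2 GC and 2 CCAAT boxes. The Fabp7 window held 1 GC box and 3 CCAAT boxes, and the Gja1 window none of the 4 motifs. The same ACAAAG lay before all 3 listed starts of Slc1a3, which lie close together. The windows of Glul and Apoe held no SOX core. Of 33469 listed rat starts, 25.3% had a SOX core in a window of this length, 30.5% a GC box, 34.02% a CCAAT box and 12.9% a TATA box. A match describes the letters only and shows no binding. Sox10, a transcription factor of the glial lineage, was at 99.4 CPM in satellite glia-like, 223 CPM in Schwann cell-like and 9.37 CPM in neuron-like nuclei.

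No gene passed the test between the left and right ganglion in satellite glia-like nuclei. Of the 6 genes 5 had counts enough for edgeR's quasi-likelihood test (Fabp7 did not), and 0 of 5 were called at an adjusted p under 0.05. The background was 0% of 11123 genes called. At an unadjusted p under 0.05 there were 0 of the 5 and 484 of all genes, and DESeq2 called 0 genes. The left and right pools did not overlap for 0 of the 5, beside 0.279% of all genes.

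Kcnj10 measured 133, 138, 150, 165, 172 and 188 CPM in the 6 left pools and 154, 164, 174, 180, 189 and 198 CPM in the 6 right pools. The right pools were higher on average, 176 ± 16.2 against 158 ± 21.2 CPM (SD, n = 6 pools each), but overlapped the left. The log2 fold change, right over left, was 0.12 ± 0.08 (SE) with an adjusted p of 1.00 in edgeR. Gja1 measured 8.56, 14.4, 17.3, 19.3, 19.9 and 26.7 CPM on the left and 17.7, 18.0, 19.4, 22.7, 24.5 and 28.5 CPM on the right. The lowest 3 values were left pools, the ranges overlapped, and the log2 fold change was 0.15 ± 0.18 (SE). Without ML1 and FL1 the log2 fold changes became 0.23 ± 0.09 for Kcnj10 and 0.49 ± 0.22 for Gja1, still with an adjusted p of 0.953 in edgeR for each. The unadjusted p in edgeR was 0.0229 and 0.0336, so 2 of the 5 genes tested lay under 0.05 there, beside 4.98% of all genes.

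Slc1a3 ran from 33.8 to 46.1 CPM with a median of 36.6 CPM in left pools, and from 33.3 to 51.6 CPM with a median of 38.8 CPM in right pools. Glul ran from 39.6 to 58.7 CPM (median 47.6 CPM) on the left and from 41.4 to 57.0 CPM (median 46.6 CPM) on the right. Their log2 fold changes were 0.05 ± 0.14 and -0.03 ± 0.11 (SE), and the groups overlapped almost fully. Fabp7 was at 3.67 to 9.60 CPM in left pools and 2.95 to 5.84 CPM in right pools, from 3 to 18 UMIs per pool, and the sides overlapped. Without the low-count filter its log2 fold change was -0.56 ± 0.31 (SE, adjusted p of 0.893 in edgeR), and over the 15 alternative fits that kept it the value ran from -0.68 to -0.45 with none called.

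Apoe measured 1074, 1148, 1218, 1369, 1373 and 1457 CPM in left pools and 984, 1282, 1329, 1397, 1490 and 1528 CPM in right pools. Both the lowest and the highest value came from a right pool, and the log2 fold change was 0.06 ± 0.08 (SE). The neuron-marker level in these nuclei was 11095 ± 707 CPM on the left and 11063 ± 934 CPM on the right. Macrophage markers summed to 67.0 ± 15.9 CPM in left and 82.1 ± 7.23 CPM in right pools, and their part in the Apoe values was not tested.

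**Figure D4:**
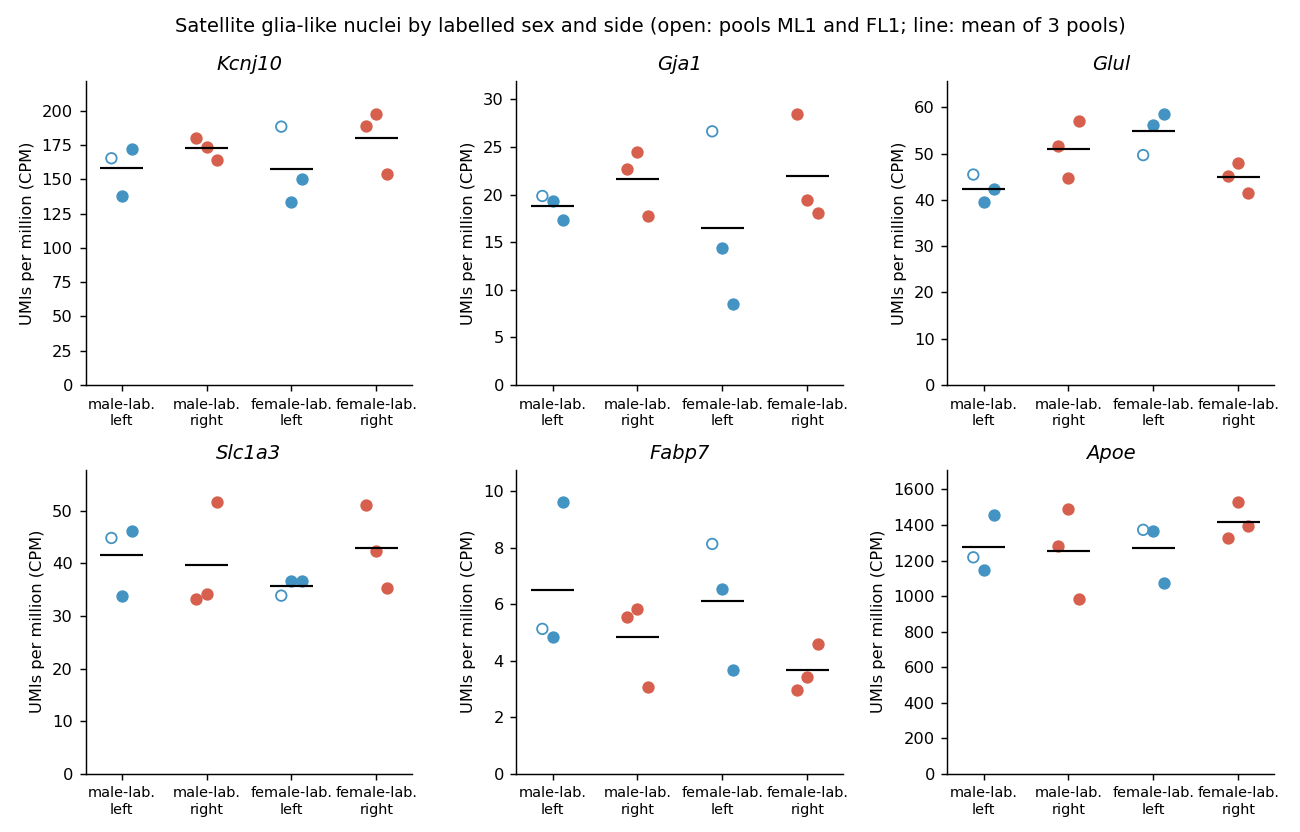
Level of each gene in satellite glia-like nuclei, in CPM (linear axis from 0), for the 4 combinations of labelled sex and side with 3 pools each (points) and their mean (line). Open points are ML1 and FL1, whose Y-linked transcripts go against the label. With both labelled sexes in 1 group, left and right pools overlap for every gene.

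Labelled sex gave no call either. In edgeR 0 of 5 genes were called, beside 0% of all 11123 genes. At an unadjusted p under 0.05 there were 0 of the 5 and 819 of all genes, and DESeq2 called 1 gene, none of the 6. The labelled sexes did not overlap for 0 of the 5, beside 0.351% of all genes. Log2 fold changes, female-labelled over male-labelled, were 0.03 ± 0.08 for Kcnj10, -0.06 ± 0.18 for Gja1, 0.03 ± 0.11 for Glul, -0.06 ± 0.13 for Slc1a3 and 0.08 ± 0.08 for Apoe (SE). Mean levels were 169 ± 26.3 and 166 ± 14.7 CPM for Kcnj10, and 1345 ± 149 and 1263 ± 191 CPM for Apoe (female-labelled and male-labelled, SD, n = 6). Gja1 spread further over the female-labelled pools (8.56 to 28.5 CPM) than over the male-labelled ones (17.3 to 24.5 CPM). Without ML1 and FL1 there were 18 calls among all genes and 0 among the 5.

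The side difference itself was compared between the labelled sexes by an interaction term, again with 0 of 5 called in edgeR, beside 0% of 11123 genes. At an unadjusted p under 0.05 there were 1 of the 5 and 752 of all genes, and DESeq2 called 0. The 1 gene was Glul. It measured 39.6, 42.3 and 45.5 CPM in male-labelled left pools and 44.7, 51.6 and 57.0 CPM in male-labelled right pools. In female-labelled pools it measured 49.7, 56.2 and 58.7 CPM on the left and 41.4, 45.2 and 48.0 CPM on the right. The male-labelled groups overlapped and the female-labelled groups did not. The share of all genes that lie apart in groups of so few pools was not counted, so no weight is put on this. The left groups included FL1 (49.7 CPM) and ML1 (45.5 CPM), whose Y-linked transcripts go against the label. The interaction on the log2 scale was -0.48 ± 0.21 (SE), with an unadjusted p of 0.0277 and an adjusted p of 0.662 in edgeR, and it was -0.65 ± 0.25 without ML1 and FL1 (adjusted p of 0.918).

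In neuron-like nuclei the same genes were tested at their much lower levels. Between sides 0 of 5 were called in edgeR, against a background of 0.314% of 14014 genes. At an unadjusted p under 0.05 there were 1 of the 5 and 1054 of all genes, and DESeq2 called 109 genes, none of the 6. Left and right pools lay wholly apart for 0 of the 5, beside 0.621% of all genes. The 1 gene was Apoe, which measured 73.4, 84.3, 88.0, 91.1, 93.5 and 104 CPM in left pools and 81.1, 93.1, 104, 111, 127 and 158 CPM in right pools. The groups overlapped, and MR2 and FR2 were the highest. The log2 fold change was 0.33 ± 0.12 (SE), with an unadjusted p of 0.0111 and an adjusted p of 0.432 in edgeR. The satellite glia markers in neuron-like nuclei were at 1232 ± 177 CPM on the left and 1419 ± 144 CPM on the right, and their part in the Apoe difference was not tested.

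By labelled sex 0 of 5 were called in neuron-like nuclei by edgeR, against a background of 0.0856%. At an unadjusted p under 0.05 there were 2 of the 5 and 2362 of all genes. DESeq2 called 324 genes, among them Kcnj10 (adjusted p of 0.0451). The labelled sexes did not overlap for 0 of the 5, beside 0.942% of all genes. Kcnj10 measured 8.38, 10.9, 12.3, 12.5, 13.8 and 16.6 CPM in female-labelled pools and 12.2, 14.4, 17.7, 17.9, 18.1 and 20.8 CPM in male-labelled pools. The groups overlapped, and ML1 was the lowest male-labelled pool. The log2 fold change was -0.44 ± 0.13 (SE) with an adjusted p of 0.127 in edgeR. Gja1 had 6 to 26 UMIs per pool, 1.2 ± 0.344 CPM in female-labelled and 2.03 ± 0.643 CPM in male-labelled pools (SD, n = 6), with a log2 fold change of -0.74 ± 0.26 (SE) and an adjusted p of 0.179 in edgeR. Without ML1 and FL1 these were -0.50 ± 0.14 (adjusted p of 0.132) and -1.03 ± 0.27 (adjusted p of 0.116). Summed satellite glia markers in neuron-like nuclei were 1240 ± 196 CPM in female-labelled and 1410 ± 132 CPM in male-labelled pools, and their part in the Kcnj10 and Gja1 values was not tested.

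Summed over all kept nuclei of a pool, Kcnj10 ran from 29.2 to 43.9 CPM in left pools (median 36.3 CPM) and from 34.4 to 60.1 CPM in right pools (median 50.8 CPM). Apoe ran from 184 to 347 CPM on the left (median 266 CPM) and from 254 to 451 CPM on the right (median 336 CPM). The share of satellite glia-like nuclei moved the same way, 11.99 ± 2.61% of left-pool nuclei and 15.8 ± 3.11% of right-pool nuclei (SD, n = 6 pools each), and the sides overlapped for all 3 measures. In such sums, more nuclei of a type and more RNA per nucleus cannot be told apart. Fabp7, which carried no test either, was at 1.46 ± 0.558 CPM in left and 1.45 ± 0.266 CPM in right pools.

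Other genes of the same roles were followed as 6 lists that included the 6 genes. Over 11160 genes with at least 10 CPM in at least 1 class, 65.5% had a higher mean level in satellite glia-like than in neuron-like nuclei. For 31.3% it was higher by more than both SDs. The lists had no such filter and hold scarcer genes, such as Fabp7, so these shares are only a rough measure for the counts by list. Of 9 potassium and water genes, 5 had a higher mean level, 3 of them by more than both SDs. Beside Kcnj10 they included the sodium pump subunit Atp1b2 (56.2 against 5.22 CPM). Kcnj16, a partner subunit of Kcnj10 in other tissues, was at 0.466 CPM and the water channel Aqp4 at 0.5 CPM in satellite glia-like nuclei. Of 9 connexin and pannexin genes 7 were higher, 4 by more than both SDs, with Gjc3 at 28.9 against 5.32 CPM. Schwann cell-like nuclei held 226 CPM of Gjc3. Of the 9 potassium and water genes 5, and of the 9 connexin and pannexin genes 4, were higher in satellite glia-like than in Schwann cell-like nuclei. The share of all genes for that comparison was not taken. Panx1, which forms large membrane channels, was at 26.2 CPM against 47.2 CPM in neuron-like nuclei.

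Of 13 glutamate and GABA genes, 10 were higher in satellite glia-like nuclei, 4 by more than both SDs. Glud1 (104 against 94.3 CPM) and the glutamine carrier Slc38a2 (89.0 against 78.8 CPM) lay close together in both classes. Of 20 lipid and cholesterol genes 18 were higher, 13 by more than both SDs, among them the cholesterol synthesis genes Hmgcs1 (636 against 342 CPM) and Cyp51 (375 against 224 CPM). All 5 reactivity genes were higher than in neuron-like nuclei, with S100b at 336 against 126 CPM, Vim at 281 against 53.8 CPM and Aldoc at 84.5 against 27.3 CPM. Against Schwann cell-like nuclei, 6 of the 13 glutamate and GABA, 15 of the 20 lipid and cholesterol and 2 of the 5 reactivity genes were higher. Without the share of all genes for that comparison, these counts are not read as a trait of a list. Vim was at 571 CPM in the Schwann cell-like class. All 6 glial transcription factors were higher than in neuron-like nuclei and lower than in Schwann cell-like nuclei, with Nfia at 669, 177 and 1154 CPM and Sox2 at 35.3, 2.91 and 49.0 CPM in the 3 classes.

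No gene of these lists was called in any of the 5 comparisons by edgeR. In satellite glia-like nuclei 43 of the 63 listed genes were tested (Fabp5 was not matched by symbol). By side, 2 genes were higher on the right at an unadjusted p under 0.05, Atp1b2 and Vim, and 0 were lower, beside 4.35% of all genes, with a median log2 fold change of 0.01 beside -0.00035 over all genes tested. By labelled sex 2 genes were higher and 1 was lower in female-labelled pools, beside 7.36% of all genes, with a median of 0.0018 beside -0.0017. In neuron-like nuclei 48 were tested, with 5 higher and 3 lower on the right and 4 higher and 8 lower in female-labelled pools at that unadjusted p, beside 7.52% and 16.9% of all genes in either direction. The smallest adjusted p was 0.117, for Nfia by labelled sex in neuron-like nuclei.

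The genes most like each of the 6 in level across the 5 classes were found among 11160 genes by Pearson's r of the mean log2(CPM + 1) over those 5 points. They were Pygl, B4galnt3 and Lmx1b for Kcnj10, Ifi44, Ddx58 and Hnrnpd for Gja1, and Zmiz1 and Il33 for Glul. They were Adamts5, Sdc4 and Mt-nd1 for Slc1a3, Chst9, Cox5b and Csdc2 for Fabp7, and Ddb1 and Foxp2 for Apoe, with a gene that has no symbol as another of the 3 for Glul and for Apoe. All had r above 0.994, which 5 points reach easily.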

How the data were processed

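The authors deposited raw UMI counts per nucleus and gene, with no normalisation: the matrix sums matched the deposited totals of all 36741 nuclei. The build is mRatBN7.2 and the tools R 4.3.2 and Seurat 4.1.3, per the submitters' processing notes. The sources used here do not name the aligner, annotation or barcode filter. The 6 genes and all lists were chosen with earlier results of these data known.

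Filters on detected genes (300 or more) and mitochondrial UMIs (no more than 5%) removed 1 nucleus. Scrublet (scanpy 1.11.5) called 2 doublets (0.00544%), so it did not work as a caller and none were removed. Clusters (3000 variable genes, 30 principal components, 20 neighbours, Leiden resolution 1, non-neuronal nuclei clustered again) took a name from at least 3 markers at 2-fold, or 1.5-fold for neurons, a rule settled after the clusters were seen. Clusters led by Th or Ddc stayed unnamed. CPM is a gene's UMIs per 1000000 UMIs of the class in a pool. It is not corrected for gene length, so levels are not compared between genes. Counts were summed per pool and class (pools of 7139364 to 19456287 UMIs) and tested with edgeR 4.0.16 (TMM, filterByExpr, side and labelled sex as terms, Benjamini-Hochberg adjustment), after a check on simulated data. Adding the interaction term gave the third contrast. The named genes were the 6, the called genes of the role lists or, where none was called, the 3 with the highest satellite glia-like CPM in a list, and the 3 most alike genes. Others (Atp1b2, Kcnj16, Aqp4, Cartpt) were named after their values were seen. Some genes that this rule would name are not reported here. DESeq2 1.42.0, RLE size factors, no filter, other resolutions, doublet scores, 500 genes, each pool left out and a replicate block were alternatives. P-values set a difference against the spread between pools, with all pools taken as independent. Since left and right pools of a sex would share rats, the tests by labelled sex may count the same animals more than once. The replicate block was not run for labelled sex.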

Additional observations from a re-analysis of the deposited data

Results flagged for a closer look

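Of 124 groups of 6 pools, 10 held a pool far from the other 5 (Dixon's ratio above the 95% critical value for 6), and chance flags about 1 in 20 groups. FL3, the pool with the fewest satellite glia-like nuclei, gave 6 of the 10, all in the small Schwann cell-like and endothelial-like classes. There it had 176 CPM of Kcnj10 in Schwann cell-like nuclei (other left pools 85.2 to 102 CPM) and 20.4 CPM of Slc1a3 (other female-labelled pools 48.0 to 58.5 CPM). In endothelial-like nuclei it had 0 CPM of Kcnj10 (others 82.0 to 111 CPM), 148 CPM of Gja1 against both the left and the female-labelled pools, and 111 CPM of Slc1a3 (others 14.6 to 43.2 CPM). FL3 had 17 endothelial-like nuclei, the fewest of any pool.

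Fabp7 was above 0 in 1 of 6 pools in 3 groups: 4.50 CPM in ML2 and 2.80 CPM in FR2 in Schwann cell-like nuclei, and 10.6 CPM in MR3 in endothelial-like nuclei. Apoe in neuron-like nuclei was at 158 CPM in MR2, above the 84.3 to 111 CPM of the other male-labelled pools.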

How the results depend on the processing

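The count of the 6 genes called stayed at 0 in 108 alternative fits and moved in 3. It became 1 in neuron-like nuclei by side without the low-count filter (Apoe, log2 fold change 0.33, adjusted p of 0.018), and by labelled sex with DESeq2 (Kcnj10, -0.45, adjusted p of 0.0451) and without the filter (Kcnj10, -0.43, adjusted p of 0.0155). Without the filter 22844 genes were tested in place of 14014, and the unadjusted p in edgeR was also smaller. It was 6.8e-05 in place of 0.0111 for Apoe by side, and 0.00024 in place of 0.0039 for Kcnj10 by labelled sex. The cause was not tested. Leaving out each pool in turn kept every count at 0.

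Among the alternative fold changes 49 changed sign and 503 kept sign and call, each of a gene that was not called. In the satellite glia-like cluster with the lowest neuron-marker level, an alternative chosen after seeing the data, they were Slc1a3 (-0.11) and Apoe (-0.055) by side, Glul (-0.092) and Slc1a3 (0.44) by labelled sex, and Kcnj10 (-0.26) and Apoe (-0.044) in the interaction. Glul there kept its sign, at -0.45 ± 0.22 by side (adjusted p of 0.928 in edgeR) and -0.22 in the interaction. With at least 500 genes per nucleus they were Glul by side (0.012) and by labelled sex (-0.00067), and Kcnj10 (-0.014) and Gja1 (0.053) in the interaction. At resolution 0.5 they were Slc1a3 by side (-0.011) and labelled sex (0.063), and Gja1 by side in neuron-like nuclei (-0.12). At resolution 2 they were Glul by labelled sex (-0.0031) and Gja1 in the interaction (0.077). With the 6 genes kept for clustering they were Glul by labelled sex (-0.021), and Kcnj10 (-0.059) and Gja1 (0.042) in the interaction. Without ML1 and FL1 they were Kcnj10 (-0.011) and Slc1a3 (0.037) by labelled sex, and Gja1 (0.58) in the interaction. With DESeq2 it was Gja1 in the interaction (0.00096). With a replicate block Gja1 in the interaction was 0.21, and the block changed no call. The causes were not tested.

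Leaving out 1 pool gave, by side, -0.083 to 0.034 for Glul, -0.031 to 0.12 for Slc1a3, 0.040 to 0.41 for Gja1 and 0.0027 to 0.13 for Apoe. By labelled sex it gave -0.037 to 0.084 for Kcnj10, -0.26 to 0.028 for Gja1, -0.0058 to 0.10 for Glul and -0.14 to 0.035 for Slc1a3. In the interaction it gave -0.074 to 0.22 for Kcnj10 and -0.37 to 0.63 for Gja1, and by side in neuron-like nuclei -0.13 to 0.25 for Gja1.

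The background calls were less stable. In neuron-like nuclei by labelled sex they ran from 0 (without ML2, MR2, MR3, FL2, FL3 or FR1) to 401 (without MR1), and by side from 21 (without FL1) to 55 (without ML2), with 7 without both ML1 and FL1. In satellite glia-like nuclei the unfiltered fits called 16, 81 and 35 genes. Same-numbered left and right pools deviated together at r between -0.05 and 0.15, so the numbers are not taken to pair the pools. At resolution 0.5 the satellite glia-like mean of Kcnj10 was 134 CPM and that of Apoe 1064 CPM, and the neuron-like means were 9.49 and 62.4 CPM. The mixed vessel nuclei formed a class of their own at resolution 2 and without the highest doublet scores, and not in the other 3 alternative clusterings. Fabp7, with 203 UMIs in all, was too scarce for the filtered test.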

Other observations

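Nuclei without a name included a cluster of 484 led by Th, the gene of the rate-limiting enzyme of catecholamine synthesis. It held 91.2 CPM of Kcnj10, 15.9 CPM of Gja1, 34.3 CPM of Glul, 28.8 CPM of Slc1a3, 3.73 CPM of Fabp7 and 931 CPM of Apoe. Each of these lay above the highest of the 17 neuron-like clusters, beside 12916 CPM of neuron markers and 3994 CPM of satellite glia markers, and at a median of 6485 UMIs per nucleus. A second unnamed cluster, 327 nuclei led by Ddc, held 54.6 CPM of Kcnj10 and 483 CPM of Apoe, from 58 and 513 UMIs.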
